A study of Mus musculus with 6 samples.

Results

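The lysosomal set described here held 46 genes grouped by known role: 12 lysosomal proteases (10 cathepsins with legumain and tripeptidyl peptidase 1), 11 enzymes that take apart glycans and glycoproteins, 8 genes of lipid handling, 5 lysosomal membrane proteins, 6 subunits of the vacuolar proton pump and the 4 MiT/TFE transcription factors. The members were chosen by symbol. Of the 22098 gene symbols in the deposited table, 43 members were found under their current symbol and 3 (Tfe3, Tfeb and Tfec) under the older symbols Tcfe3, Tcfeb and Tcfec. Each symbol was represented by the transcript row whose mean over the 6 libraries was highest. All 46 reached 1 RPKM (reads divided by kilobases of transcript and by the size of the mapped library) in at least 2 libraries, the condition for testing, although Ctsf, Mitf and Tfec met it only because of ZnF1-/- libraries.

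RNA-seq was carried out on bone marrow cells of C57BL/6 mice that had received a BCR-ABL-p185-IRES-YFP retrovirus at day 0 of culture and are labelled as transformed pro-B acute lymphoblastic leukaemia. Every group therefore carried BCR-ABL, an oncogenic kinase made by fusion of the genes BCR and ABL1 in human leukaemia. The groups differed in Ikaros (gene Ikzf1), which encodes a DNA-binding regulator of lymphoid cells with several zinc fingers: wild type, Ikaros-ZnF1-/- (ZnF1-/- below) and Ikaros-ZnF4-/- (ZnF4-/- below), named for separate fingers of its DNA-binding domain, whose individual functions the study addressed. Each genotype was sampled at day 21 and at day 28, with 1 library per genotype and day and therefore n = 2 per genotype. Whole marrow suspensions were transduced and the labels name no sort, so other marrow cells could be present. Nor do they state if day 21 and day 28 of a genotype were independent cultures. The p-values below rest on how far genotype differences varied between the days, with a spread partly shared across genes. They may not cover the spread between cultures.

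Lysosomes are acidic organelles in which proteins, glycans and lipids delivered by endocytosis, phagocytosis and autophagy are broken down. The vacuolar proton pump acidifies them, membrane proteins such as Lamp1 line them, and their enzymes are mostly sorted there from the Golgi by mannose 6-phosphate tags. The MiT/TFE factors, helix-loop-helix proteins that bind E-box sequences in the promoters of many lysosomal genes, are held in the cytoplasm by the nutrient-sensing kinase mTORC1 when nutrients are plentiful and enter the nucleus when they are scarce. Macrophages and osteoclasts are particularly rich in lysosomes.

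Between 10401 and 11233 symbols reached 1 RPKM in a library, and the read depth behind the values is unknown. Ikzf1 itself measured 89.2 and 78.7 RPKM in wild type, 108.0 and 91.4 in ZnF1-/- cells and 186.0 and 165.9 in ZnF4-/- cells, day 21 first as in all pairs below, and since these values cover the whole transcript they do not check the loss of a finger. The pro-B label matched the B-lineage markers: the 7 genes Cd79a, Cd79b, Pax5, Ebf1, Igll1, Vpreb1 and Blnk summed to between 2127.8 and 2598.8 RPKM in every library, and 0 of the 7 were called in ZnF1-/- cells. In ZnF4-/- cells 1 of them was called higher (Igll1, a surrogate light chain gene, 0.54 ± 0.11), a call ended by leaving out any 1 of the 6 libraries, and between the mutants 1 was higher (Igll1) and 1 lower (Cd79b) in ZnF4-/- cells. Markers of other cells differed between genotypes. The 15 macrophage markers summed to 534.6 and 339.6 RPKM in wild type, 2122.8 and 2005.5 in ZnF1-/- cells and 216.0 and 282.2 in ZnF4-/- cells. The 9 stromal markers summed to 38.4 and 25.0, 168.4 and 161.2, and 18.1 and 17.5 RPKM in the same order, with Lum at 0. The 8 granulocyte markers summed to 0.5 and 0.2, 2.3 and 2.5, and 0.4 and 0.8 RPKM, with Mpo, Elane and Ltf at 0.

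Lysosomal transcripts were higher in ZnF1-/- cells than in wild type. Of the 46 members, 40 rose, 0 fell and 6 were not called by limma at a Benjamini-Hochberg adjusted p below 0.05 over the 11379 genes tested. Among all tested genes, 22.9% were called higher and 15.2% lower in this comparison. Leaving out Ctsf, Mitf and Tfec, whose testing depended on high ZnF1-/- values, 37 of 43 rose, with a median of 0.99. The median difference of the members was 1.04 on the log2(RPKM + 1) scale, against -0.02 over all tested genes. On both days, 21 members, Ctsf, Mitf and Tfec among them, were at least 1 higher on that scale, a distance that 8.23% of tested genes reached. The summed RPKM of the members was 1886.1 and 1589.3 in wild type, 4732.2 and 5181.2 in ZnF1-/- cells and 1542.0 and 1602.5 in ZnF4-/- cells, a ratio of means of 2.85 for ZnF1-/- cells and 0.905 for ZnF4-/- cells against wild type. In these bulk libraries, more cells of a lysosome-rich type and more RNA per cell cannot be told apart.

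Macrophage and stromal markers moved with this difference, as did the 1 granulocyte marker tested, at a far lower level. Of the 14 macrophage markers tested, 13 rose in ZnF1-/- cells, with differences from 2.02 (Msr1) to 2.45 (C1qc) on the log2(RPKM + 1) scale and a median over the 14 of 2.25. Marco was not called (0.11), and Cd163, which was not tested, lay between 0.0 and 0.6 RPKM. C1qb, a complement gene of tissue macrophages, measured 54.4 and 38.3 RPKM in wild type, 249.8 and 246.9 in ZnF1-/- cells and 19.3 and 20.8 in ZnF4-/- cells. All 8 stromal markers tested rose as well (median 1.75), of which Col3a1, Dcn and Pdgfrb could be tested only by being high in ZnF1-/- cells, as could S100a8, the 1 granulocyte marker tested (1.07 ± 0.21, limma adjusted p = 0.0155, a call ended by leaving out a day-28 sample of any genotype or the day-21 ZnF4-/- sample). Among the lysosomal genes, 9 (Ctsb, Ctsd, Ctsh, Ctsl, Grn, Lgmn, Hexa, Lipa and Atp6v0d2) differed by at least as much as the least changed of those 13 macrophage markers, and 37 differed by less. The part of other cell types in the lysosomal differences was not tested.

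**Figure D1:**
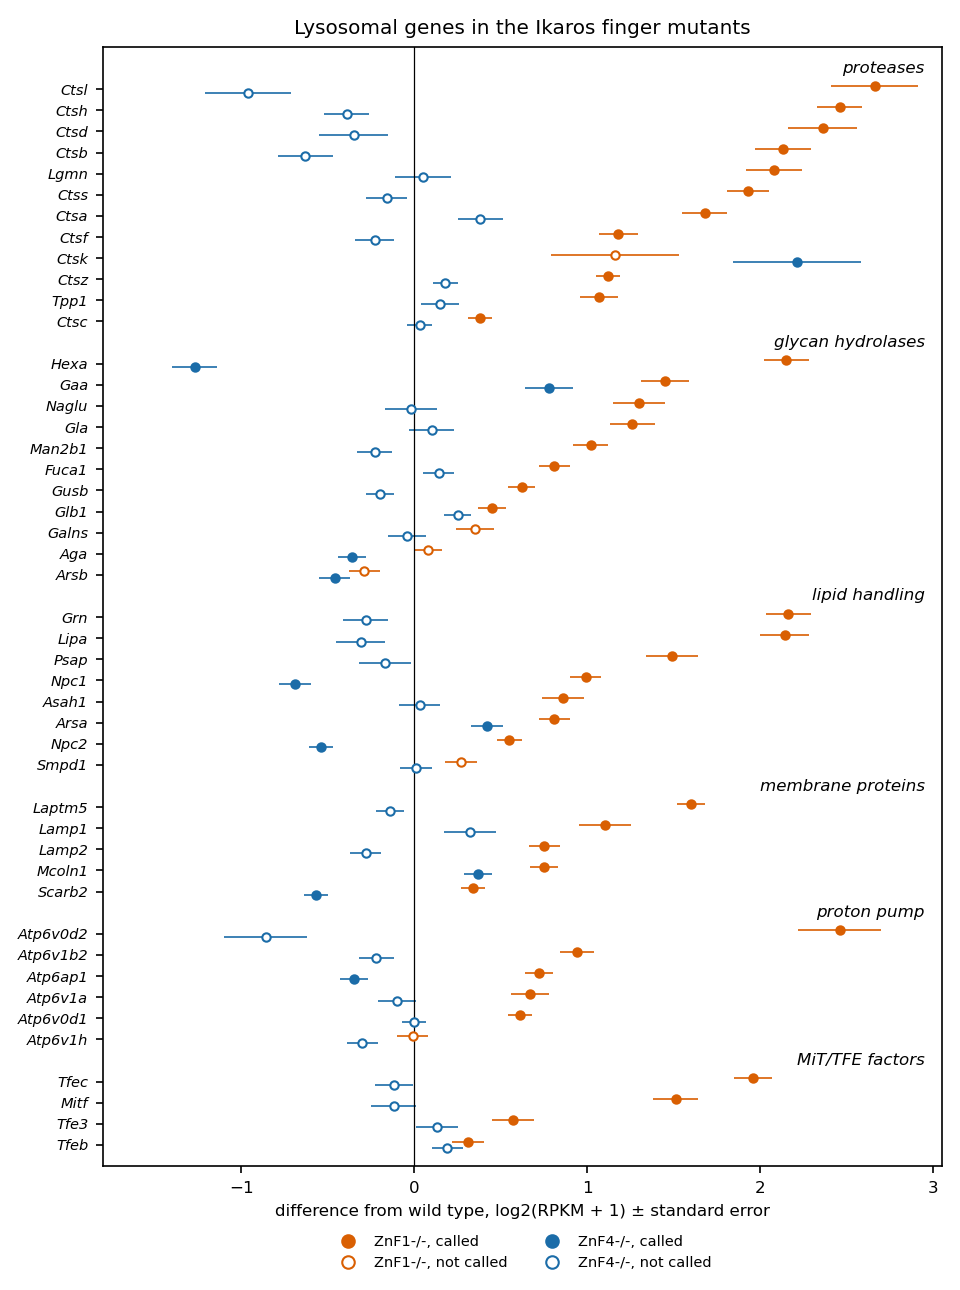
Difference of each lysosomal gene from wild type on the log2(RPKM + 1) scale (points) with its standard error (bars), by role, for ZnF1-/- cells (orange) and ZnF4-/- cells (blue); filled points were called by limma at an adjusted p below 0.05. In ZnF1-/- cells 40 points were called, all to the right of 0, and in ZnF4-/- cells 4 were called to the right and 7 to the left.

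**Figure D2:**
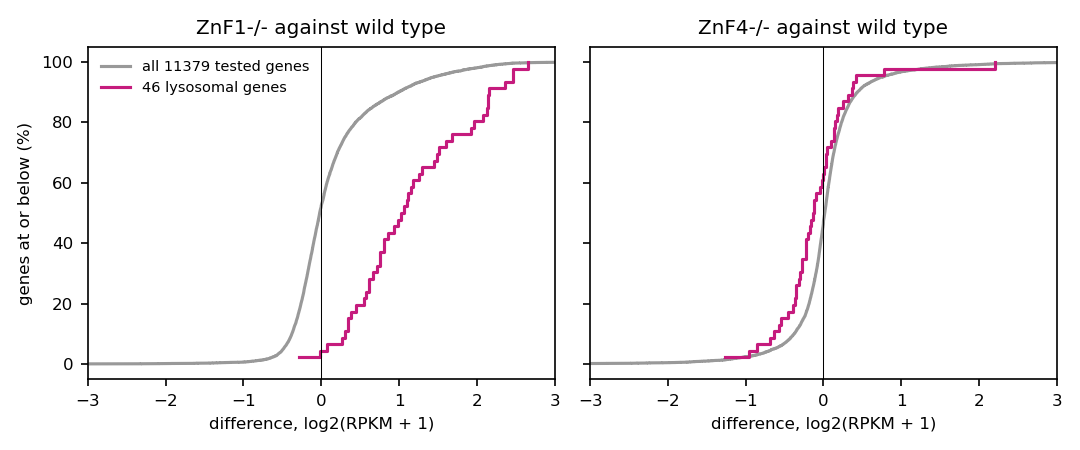
Cumulative percentage of genes (vertical axis) at or below a given difference on the log2(RPKM + 1) scale (horizontal axis), for the 46 lysosomal genes and for all 11379 tested genes. The lysosomal curve lies to the right of the other in ZnF1-/- cells (medians 1.04 and -0.02) and slightly to its left in ZnF4-/- cells (medians -0.13 and 0.02).

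Of the 6 roles, proteases had the highest median difference in ZnF1-/- cells. In ZnF1-/- cells 11 of the 12 rose, with a median difference of 1.81 on the log2(RPKM + 1) scale, and their summed RPKM was 653.8 and 500.7 in wild type, 2163.7 and 2477.2 in ZnF1-/- cells and 522.3 and 531.3 in ZnF4-/- cells. Ctsd encodes the aspartic protease cathepsin D and was the most highly expressed protease per length. Ctsd measured 198.7 and 135.6 RPKM in wild type, 773.3 and 921.3 in ZnF1-/- cells and 128.3 and 129.0 in ZnF4-/- cells. The ZnF1-/- libraries stood above the other 4 without overlap, and ZnF1-/- cells differed from wild type by 2.36 ± 0.20 (SE, limma adjusted p = 0.00135), a ratio of mean RPKM of 5.07. Between 26.5% and 39.5% of the summed RPKM of the 10 cathepsins came from this gene in each library.

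The cysteine proteases cathepsin L, B and H showed the same order of genotypes. Ctsl, whose product also cleaves the invariant chain of MHC class II in some cells, measured 51.7 and 35.1 RPKM in wild type, 227.6 and 332.3 in ZnF1-/- cells and 21.7 and 21.1 in ZnF4-/- cells. Wild type, ZnF1-/- and ZnF4-/- libraries did not overlap for this gene, and the rise in ZnF1-/- cells was 2.66 ± 0.25 (SE, limma adjusted p = 0.00168), the highest difference in the set. In ZnF4-/- cells the difference from wild type was -0.96 ± 0.25 and was not called (limma adjusted p = 0.0547). Its call there moved with the setting, from 0.0279 to 0.34 in adjusted p over the alternatives.

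Ctsb had 111.9 and 78.7 RPKM in wild type, 397.1 and 433.9 in ZnF1-/- cells and 59.5 and 60.8 in ZnF4-/- cells, and likewise separated the 3 genotypes. Its difference was 2.13 ± 0.16 in ZnF1-/- cells (SE, limma adjusted p = 0.00122) and -0.63 ± 0.16 in ZnF4-/- cells (adjusted p = 0.0552, not called). The span of the gene overlaps that of its neighbour Fdft1, and the protocol names no step that marks strand. Reads from any shared exon bases could not be told apart, and whether the exons overlap was not checked. Ctsh, which encodes an aminopeptidase, was low in wild type at 1.8 and 1.2 RPKM and in ZnF4-/- cells at 1.1 and 0.7, and reached 12.5 and 12.8 in ZnF1-/- cells. The rise was 2.46 ± 0.13 (SE, limma adjusted p = 0.001), which understates the ratio of 8.43 between mean RPKM because of the pseudocount of 1.

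Ctsk departed from the other proteases. It encodes cathepsin K, the collagen-degrading protease of osteoclasts, and was the only protease called in ZnF4-/- cells. Ctsk measured 6.5 and 8.0 RPKM in wild type, 8.6 and 34.3 in ZnF1-/- cells and 28.9 and 47.0 in ZnF4-/- cells. Both ZnF4-/- libraries lay above both wild-type libraries, whereas ZnF1-/- cells were near wild type on day 21 and within the ZnF4-/- range on day 28. The rise was 2.21 ± 0.37 in ZnF4-/- cells (SE, limma adjusted p = 0.0172), and the difference of 1.16 ± 0.37 in ZnF1-/- cells was not called (adjusted p = 0.0605). Leaving out any 1 sample of wild type or ZnF4-/-, or the day term, ended the ZnF4 call (adjusted p 0.0103 to 0.208 over the alternatives). Without the day-21 ZnF1-/- sample the ZnF1 difference was called (adjusted p 0.017 to 0.366 over the alternatives). The direct difference between the mutants, 1.04 ± 0.37 higher in ZnF4-/- cells, was not called (adjusted p = 0.0724), and was called without the day-28 ZnF1-/- sample (adjusted p 0.0147 to 0.351 over the alternatives).

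The other 7 proteases, Ctsa, Ctsc, Ctsf, Ctss, Ctsz, Lgmn and Tpp1, all rose in ZnF1-/- cells, by 0.38 (Ctsc) to 2.08 (Lgmn), and none was called in ZnF4-/- cells. Ctss, whose product processes the invariant chain in antigen-presenting cells, had 75.5 and 61.3 RPKM in wild type, 250.1 and 276.4 in ZnF1-/- cells and 64.8 and 57.3 in ZnF4-/- cells. Ctsc, the activator of granule serine proteases, moved least, from 46.5 and 44.7 to 63.4 and 55.7 RPKM, and its call was ended by leaving out any 1 sample of wild type or ZnF1-/-. Protease inhibitors, of cysteine or serine proteases, also differed. Of the 4 tested of 10 listed, 3 rose in ZnF1-/- cells: Cst3 (cystatin C, 1.17 ± 0.09, limma adjusted p = 0.00114), Cstb (stefin B, 1.17 ± 0.13) and Serpinb6a (2.05 ± 0.16). Cst3 also rose in ZnF4-/- cells (0.46 ± 0.09), as did Cst7 (cystatin F, 1.65 ± 0.38, limma adjusted p = 0.0418), and each of those calls was ended by leaving out the day term or any 1 of the 6 libraries, except that Cst7 was still called without the day-21 wild-type sample.

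**Figure D3:**
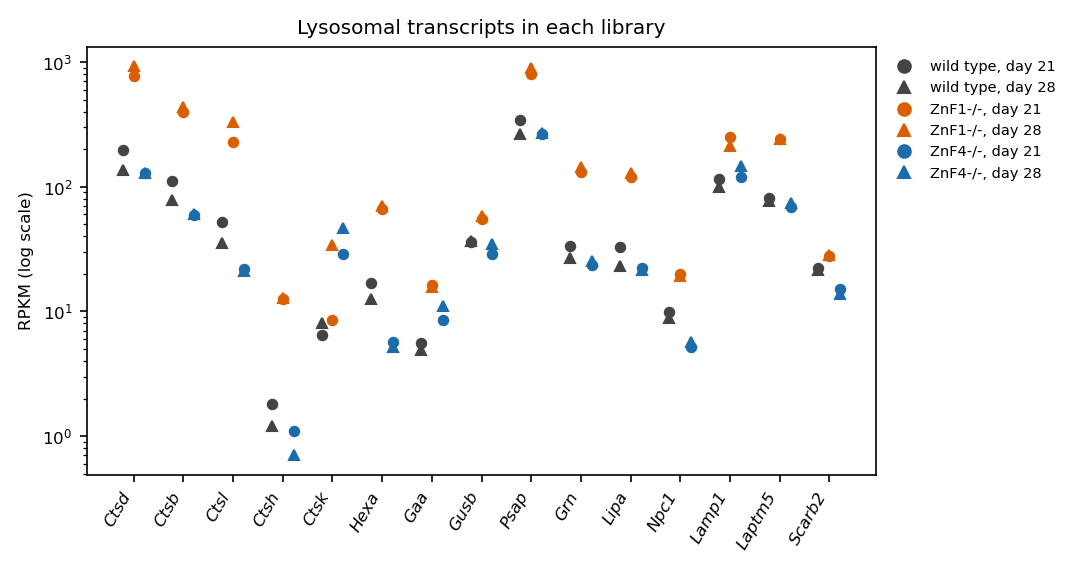
RPKM on a log scale (vertical axis) of 15 lysosomal genes in each of the 6 libraries, with circles for day 21 and triangles for day 28. For most of these genes ZnF1-/- libraries (orange) stand above the rest, whereas Ctsk has its highest mean in ZnF4-/- cells (blue, 28.9 and 47.0 RPKM). Hexa, Npc1 and Scarb2 are lowest in ZnF4-/- cells and were called lower there. Ctsd, Ctsb, Ctsl, Ctsh, Gusb, Grn, Lipa and Laptm5 also lie lowest there but were not called.

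Hydrolases of glycans and glycoproteins were more mixed. In ZnF1-/- cells 8 of the 11 rose, with a median of 0.81, and Galns, Arsb and Aga were not called. In ZnF4-/- cells 1 rose and 3 fell. Hexa encodes the alpha subunit of hexosaminidase A, which degrades GM2 ganglioside, and it differed in opposite directions in the mutants. Hexa measured 17.0 and 12.5 RPKM in wild type, 66.6 and 70.1 in ZnF1-/- cells and 5.7 and 5.2 in ZnF4-/- cells, so that the 3 genotypes did not overlap. It rose by 2.15 ± 0.13 in ZnF1-/- cells (SE, limma adjusted p = 0.001) and fell by 1.27 ± 0.13 in ZnF4-/- cells (limma adjusted p = 0.00374), where wild type had 2.71 times the mean RPKM. The ZnF4 call was ended by leaving out either ZnF4-/- sample or the filter on low values (adjusted p 0.00195 to 0.0958 over the alternatives). The span of Hexa overlaps that of Tmem202, and whether their exons share bases was not checked. In the GRCm38.p6 annotation the same holds for Ctsa (Neurl2 and Pltp), Ctsz (Nelfcd), Glb1 (Tmppe), Galns (Trappc2l), Asah1 (Frg1), Npc1 (Rmc1) and Atp6v1b2 (Slc18a1), and for Arsa, Smpd1, Lamp2, Laptm5 and Tfe3 with noncoding RNAs.

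Gaa, the acid alpha-glucosidase that degrades lysosomal glycogen, rose in both mutants. It had 5.6 and 4.9 RPKM in wild type, 16.4 and 15.6 in ZnF1-/- cells and 8.6 and 11.0 in ZnF4-/- cells, again with no overlap between genotypes. The rise was 1.45 ± 0.14 in ZnF1-/- cells (SE, limma adjusted p = 0.00173) and 0.78 ± 0.14 in ZnF4-/- cells (adjusted p = 0.0186). Only the second of these was lost, by leaving out either wild-type sample, either ZnF1-/- sample or the day-28 ZnF4-/- sample (adjusted p 0.0154 to 0.178 over the alternatives).

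Naglu, Gla and Gusb rose in ZnF1-/- cells and were not called in ZnF4-/- cells. Naglu, an enzyme of heparan sulphate breakdown, went from 4.5 and 3.8 RPKM in wild type to 10.2 and 13.2 in ZnF1-/- cells, with 3.7 and 4.5 in ZnF4-/- cells (1.30 ± 0.15 in ZnF1-/- cells, limma adjusted p = 0.00286). Gla, the alpha-galactosidase that is missing in Fabry disease, had 3.8 and 3.7, 9.0 and 12.0, and 4.1 and 4.1 RPKM in the same order (1.26 ± 0.13, limma adjusted p = 0.00209). Gusb, the beta-glucuronidase and the most highly expressed of this group per length, had 36.2 and 36.8, 55.4 and 58.1, and 29.0 and 34.4 RPKM (0.62 ± 0.08, limma adjusted p = 0.004). The Gusb call was ended by leaving out the day-28 wild-type sample or the day-21 ZnF1-/- sample.

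Fuca1, Glb1 and Man2b1, which remove fucose, galactose and mannose, rose in ZnF1-/- cells by 0.45 (Glb1) to 1.02 (Man2b1). Arsb, a sulphatase of dermatan sulphate, lay lower in both mutants than in wild type, with 24.7 and 19.6 RPKM in wild type, 18.5 and 17.2 in ZnF1-/- cells and 16.2 and 15.3 in ZnF4-/- cells. It was the only member whose ZnF1-/- libraries lay below wild type without overlap. That difference was not called (-0.29 ± 0.09, limma adjusted p = 0.0547), except under quantile scaling (adjusted p 0.0352 to 0.351 over the alternatives), and the fall of 0.46 ± 0.09 in ZnF4-/- cells was called (adjusted p = 0.0255). Aga, the glycosylasparaginase, fell in ZnF4-/- cells by 0.36 ± 0.08 (limma adjusted p = 0.0386). The Arsb and Aga calls in ZnF4-/- cells were each ended by leaving out any 1 of the 6 libraries or the day term.

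Genes of lipid handling rose in ZnF1-/- cells in 7 of 8 cases, with a median of 0.93 and Smpd1, the acid sphingomyelinase, not called (0.27 ± 0.09, limma adjusted p = 0.0635). Psap, the precursor of the saposins that present sphingolipids to their hydrolases, was the most abundant member of the set per length. Psap measured 344.3 and 264.6 RPKM in wild type, 804.7 and 896.1 in ZnF1-/- cells and 265.3 and 271.6 in ZnF4-/- cells. Wild type and ZnF4-/- libraries overlapped while ZnF1-/- cells stood apart, and the rise was 1.49 ± 0.15 (SE, limma adjusted p = 0.00198). Psap has 6 transcript rows of similar length in the table (2581 to 2675 bases), among which its reads may be split.

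Lipa and Grn rose by the largest amounts of this group. Lipa, the acid lipase that hydrolyses cholesteryl esters, had 32.6 and 23.0 RPKM in wild type, 120.5 and 127.9 in ZnF1-/- cells and 22.4 and 21.4 in ZnF4-/- cells (2.14 ± 0.14 in ZnF1-/- cells, limma adjusted p = 0.00102). Grn, which encodes the lysosomal precursor progranulin, had 33.6 and 26.6, 130.9 and 143.2, and 23.4 and 25.5 RPKM (2.16 ± 0.13, limma adjusted p = 0.001). For both genes ZnF4-/- libraries lay just below wild type and the differences of -0.31 and -0.28 were not called.

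The Niemann-Pick genes, whose products pass cholesterol out of the lysosome, rose in ZnF1-/- cells and fell in ZnF4-/- cells. Npc1, the membrane transporter, measured 9.9 and 8.9 RPKM in wild type, 19.9 and 19.4 in ZnF1-/- cells and 5.2 and 5.7 in ZnF4-/- cells. Its 3 genotypes were separate, with a rise of 0.99 ± 0.09 (SE, limma adjusted p = 0.00173) and a fall of 0.69 ± 0.09 (adjusted p = 0.00882). Npc2, the soluble carrier, had 91.9 and 86.5, 128.6 and 133.3, and 62.1 and 60.1 RPKM, with a rise of 0.55 ± 0.07 (limma adjusted p = 0.00418) and a fall of 0.54 ± 0.07 (adjusted p = 0.00847). Both falls were ended by leaving out any 1 sample of wild type or ZnF4-/-, and the Npc2 rise was ended by leaving out either wild-type sample or the day-28 ZnF1-/- sample. Arsa, the sulphatase of sulphatide, rose in both mutants (0.81 ± 0.09 and 0.42 ± 0.09), the second call being ended by leaving out any 1 of the 6 libraries. Asah1, the acid ceramidase, rose in ZnF1-/- cells (0.86 ± 0.12) and was not called in ZnF4-/- cells.

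Membrane proteins rose in ZnF1-/- cells in 5 of 5 cases, with a median of 0.75. Laptm5, a transmembrane protein of haematopoietic lysosomes that takes part in receptor turnover, had 81.5 and 76.8 RPKM in wild type, 243.0 and 241.4 in ZnF1-/- cells and 69.1 and 73.9 in ZnF4-/- cells. The ZnF1-/- rise was 1.60 ± 0.08 (SE, limma adjusted p = 0.001), with ZnF4-/- cells slightly below wild type and not called. Lamp1, the main glycoprotein of the lysosomal membrane and the highest of the group per length, had 114.5 and 98.9, 250.3 and 211.2, and 120.7 and 146.7 RPKM (1.10 ± 0.15 in ZnF1-/- cells, limma adjusted p = 0.00431). Its relative Lamp2 had 58.0 and 49.6, 98.1 and 84.6, and 43.3 and 44.8 RPKM (0.75 ± 0.09, limma adjusted p = 0.00334). The calls of both Lamp genes were ended by leaving out the day-28 wild-type sample or the day-21 ZnF1-/- sample.

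Scarb2 and Mcoln1 were called in both mutants, Scarb2 in opposite directions and Mcoln1 higher in each. Scarb2 encodes LIMP-2, the receptor that brings beta-glucocerebrosidase to lysosomes, and had 22.3 and 21.4 RPKM in wild type, 27.9 and 28.1 in ZnF1-/- cells and 15.1 and 13.8 in ZnF4-/- cells. It rose by 0.34 ± 0.07 (SE, limma adjusted p = 0.0181) and fell by 0.57 ± 0.07 (adjusted p = 0.00747) with no overlap between genotypes. The rise was ended by leaving out any 1 sample of wild type or ZnF1-/-, and the fall by leaving out either wild-type sample or the day-28 ZnF4-/- sample. Mcoln1, the calcium channel through which lysosomes activate Tfeb, rose by 0.75 ± 0.08 in ZnF1-/- cells (limma adjusted p = 0.00226) and by 0.37 ± 0.08 in ZnF4-/- cells (adjusted p = 0.0353, ended by leaving out any 1 of the 6 libraries). Its RPKM was 10.8 and 10.3 in wild type, 18.7 and 18.2 in ZnF1-/- cells and 13.4 and 14.4 in ZnF4-/- cells.

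In the proton pump the d subunits moved by different amounts. Atp6v0d1 is the d subunit of most tissues and Atp6v0d2 the one of osteoclasts, macrophages and kidney. Atp6v0d1 measured 40.4 and 43.0 RPKM in wild type, 58.9 and 69.6 in ZnF1-/- cells and 39.8 and 43.5 in ZnF4-/- cells. Atp6v0d2 measured 9.7 and 6.7, 40.0 and 60.2, and 4.0 and 4.0 RPKM in the same order. For the second gene the 3 genotypes did not overlap, whereas for the first only ZnF1-/- cells stood apart. The RPKM of Atp6v0d2 was 24.0% and 15.6% of that of Atp6v0d1 in wild type, 67.9% and 86.5% in ZnF1-/- cells and 10.1% and 9.20% in ZnF4-/- cells. In ZnF1-/- cells Atp6v0d2 rose by 2.46 ± 0.24 (SE, limma adjusted p = 0.0019) and Atp6v0d1 by 0.61 ± 0.07 (adjusted p = 0.00298). The Atp6v0d2 difference in ZnF4-/- cells was -0.86 ± 0.24 and was not called (limma adjusted p = 0.0702), except under quantile scaling (adjusted p 0.0475 to 0.374 over the alternatives), and the Atp6v0d1 rise was ended by leaving out the day-28 wild-type sample.

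The other pump members differed from wild type by at most 0.94 in ZnF1-/- cells. Atp6v1b2, a catalytic-sector subunit, rose in ZnF1-/- cells from 30.1 and 31.4 to 53.7 and 66.7 RPKM, with 26.4 and 26.0 in ZnF4-/- cells (0.94 ± 0.10 in ZnF1-/- cells, limma adjusted p = 0.00216). Atp6ap1, an accessory subunit, had 49.2 and 43.8, 79.4 and 75.0, and 35.4 and 37.0 RPKM, with a rise of 0.72 ± 0.08 (limma adjusted p = 0.00258) and a fall of 0.35 ± 0.08 in ZnF4-/- cells (adjusted p = 0.0402, ended by leaving out any 1 of the 6 libraries). Its rise was ended by leaving out the day-28 wild-type sample. Atp6v1a, the ATP-binding subunit, had 26.7 and 24.7, 38.4 and 45.0, and 25.4 and 22.6 RPKM (0.67 ± 0.11 in ZnF1-/- cells, limma adjusted p = 0.0088, ended by leaving out either wild-type sample or the day-28 ZnF1-/- sample). Atp6v1h, which couples ATP hydrolysis to proton flow, was not called in either mutant against wild type and lay between 28.1 and 41.9 RPKM in all 6 libraries. Among 13 further pump subunits tested of 16 listed, 9 rose and 0 fell in ZnF1-/- cells (median 0.36), and 0 were called in ZnF4-/- cells. The a1 subunit Atp6v0a1 rose the most of them, from 5.5 and 3.9 to 25.4 and 27.0 RPKM, with 3.2 and 3.6 in ZnF4-/- cells (2.27 ± 0.15 in ZnF1-/- cells, limma adjusted p = 0.00102).

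**Figure D4:**
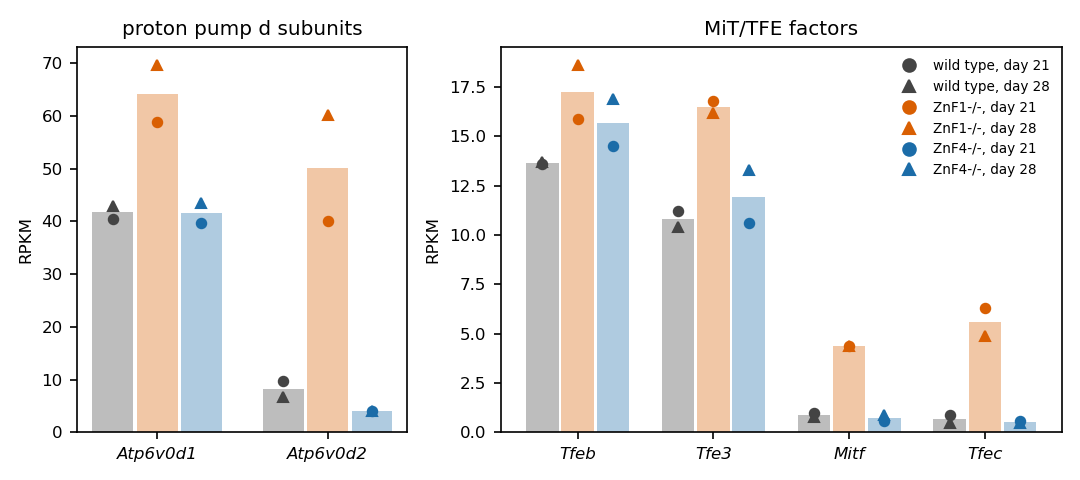
RPKM (vertical axes, from 0) of the d subunits of the proton pump and of the 4 MiT/TFE factors; bars are the means of each genotype's libraries and points the libraries (circles day 21, triangles day 28). Atp6v0d2 reaches 40.0 and 60.2 RPKM in ZnF1-/- cells, and Mitf and Tfec rise from at most 1.0 RPKM elsewhere to between 4.4 and 6.3 there.

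The MiT/TFE factors fell into an abundant pair and a scarce pair. Tfeb and Tfe3, which are broadly expressed, lay at 10.4 RPKM or above in every library, and Mitf and Tfec at 6.3 RPKM or below. Tfeb had 13.6 and 13.7 RPKM in wild type, 15.9 and 18.6 in ZnF1-/- cells and 14.5 and 16.9 in ZnF4-/- cells, so that the mutants overlapped each other above wild type. Its rise of 0.31 ± 0.09 in ZnF1-/- cells was near the threshold (SE, limma adjusted p = 0.0398) and was ended by leaving out the day term or any 1 of the 6 libraries (adjusted p 0.0223 to 0.275 over the alternatives). Tfe3 had 11.2 and 10.4, 16.8 and 16.2, and 10.6 and 13.3 RPKM, with a rise of 0.57 ± 0.12 in ZnF1-/- cells (limma adjusted p = 0.0183) that was ended by leaving out any 1 sample of wild type or ZnF1-/-.

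Mitf and Tfec, the members with tissue-restricted expression in osteoclasts, macrophages, mast cells or pigment cells, were low outside ZnF1-/- cells. Mitf measured 1.0 and 0.8 RPKM in wild type, 4.4 and 4.4 in ZnF1-/- cells and 0.6 and 0.9 in ZnF4-/- cells. Tfec measured 0.9 and 0.5, 6.3 and 4.9, and 0.6 and 0.5 RPKM in the same order. In both cases ZnF1-/- libraries stood above all others, and the rise was 1.51 ± 0.13 for Mitf (SE, limma adjusted p = 0.00143) and 1.96 ± 0.11 for Tfec (limma adjusted p = 0.001). Those calls held under every alternative that tested these genes, and requiring a mean of at least 4 RPKM left both out. Neither factor, nor the protease Ctsf, would have passed the filter on low values without ZnF1-/- libraries, so each could be tested only by being high there. No MiT/TFE factor was called in ZnF4-/- cells.

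Promoters of the members are shown because MiT/TFE factors bind the E-box CACGTG, with a preferred T before it, and because the members rose together. RefSeq windows from 250 bases before to 50 bases after the gene start (build GRCm38.p6, whereas the expression values were made on mm9) were at hand for 37 of the 46 members, and not for Aga, Asah1, Atp6v0d2, Atp6v1b2, Atp6v1h, Ctsb, Ctsh, Galns and Npc1. The stretches below run 5′ to 3′ on the strand of the gene, with each TCACGTG, read on either strand, in capitals. They are from Lamp1, which had the most E-box cores (4), and from Mcoln1 and Gla, each with a pair in the stretch shown. A protease (Ctsd), a glycan hydrolase (Naglu) and a pump subunit (Atp6v1a) follow. Ctsd had a further TCACGTG match 245 bases before the gene start, which is not shown.
Lamp1 (chr8:13159079-13159160, plus strand): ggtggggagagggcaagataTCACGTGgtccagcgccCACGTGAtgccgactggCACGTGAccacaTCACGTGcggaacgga
Mcoln1 (chr8:3500427-3500500, plus strand): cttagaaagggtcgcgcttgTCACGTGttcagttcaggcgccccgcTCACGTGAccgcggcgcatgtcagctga
Gla (chrX:134601173-134601253, minus strand): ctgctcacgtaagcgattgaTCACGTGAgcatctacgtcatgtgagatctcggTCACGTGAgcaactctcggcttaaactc
Ctsd (chr7:142387899-142387946, minus strand): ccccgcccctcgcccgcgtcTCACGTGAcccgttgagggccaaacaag
Naglu (chr11:101070000-101070046, plus strand): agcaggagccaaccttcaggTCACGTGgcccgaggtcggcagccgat
Atp6v1a (chr16:44139364-44139411, minus strand): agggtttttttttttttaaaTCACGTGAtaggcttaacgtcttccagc

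Shares here are of genes that have a window. The E-box core CACGTG, which reads the same on both strands, was present in a window of 14 of the 37 members (37.8%), 12.3% of tested genes and 8.09% of all genes. The extended form TCACGTG, searched on both strands and part of the core matches, was present in 12 members (32.4%), 7.21% of tested genes and 4.29% of all genes. The palindrome TCACGTGA, part of the extended matches, was present in 6 (16.2%), 2.42% and 1.13% respectively. In ZnF1-/- cells the 12 members with TCACGTG all rose, with a median difference of 1.18, and of the 25 without it 22 rose, with a median of 1.07. Against wild type, ZnF4-/- cells had 3 of those 12 higher and 0 lower, and 1 of the 25 higher and 5 lower. Among all tested genes 10.9% were called higher and 7.32% lower there. Each of these ZnF4 calls was ended by testing with no filter on low values and by leaving out at least 1 library. No test compared the members with and without the motif. TGGGAA, the core bound by Ikaros, was present on either strand in 3 members (Atp6v1a, Man2b1 and Tfeb, 8.11%), 26.7% of tested genes and 28.3% of all genes. A match gives letters in a window and no measurement of binding.

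In ZnF4-/- cells the calls of lysosomal genes had no common direction against wild type, while 29 of the 46 differences were negative and 17 positive. Of the 46 members, 4 rose (Ctsk, Gaa, Arsa and Mcoln1), 7 fell (Hexa, Arsb, Aga, Npc1, Npc2, Scarb2 and Atp6ap1) and 35 were not called. Among all tested genes, 10.9% were called higher and 7.32% lower, and the median difference was -0.13 for the members and 0.02 for all tested genes. These calls rested on few libraries. Leaving out 1 library of wild type or ZnF4-/- ended most of them, and most of the calls over all tested genes as well. The members' median lay between -0.26 and -0.04 with 1 library left out. Macrophage markers were lower here, with 7 of 14 tested called lower and a median of -0.72, and 4 of 8 stromal markers were called lower; their part in the members' falls was not tested.

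Both mutants were compared with the same wild-type libraries, so their calls are set side by side without a test of overlap. Gaa, Arsa and Mcoln1 were called higher in both, and Hexa, Npc1, Npc2, Scarb2 and Atp6ap1 were higher in ZnF1-/- cells and lower in ZnF4-/- cells. The other members called higher in ZnF1-/- cells were not called in ZnF4-/- cells. How often all tested genes showed these pairs of calls was not counted. Compared directly, 41 of the 46 were lower and 0 higher in ZnF4-/- cells than in ZnF1-/- cells, where 23.2% of tested genes were called lower and 22.3% higher, and the median difference was -1.05 for the members and 0.03 for all tested genes. The members furthest apart between the mutants were Ctsl (-3.62 ± 0.25, limma adjusted p = 0.000563), Hexa (-3.43 ± 0.13, adjusted p = 0.000376) and Atp6v0d2 (-3.32 ± 0.24, adjusted p = 0.000647). Ctsk, Glb1, Arsb, Smpd1 and Tfeb were not called between the mutants.

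Day made little difference that could be called. Between day 28 and day 21, limma called 0 of the 46 members and 0% of tested genes in either direction, with 6 members and 1631 genes at an unadjusted p below 0.05. Within wild type 35 of the 46 members were lower on day 28, against 45.6% of tested genes, whereas 15 of 46 were lower in ZnF1-/- cells (36.3% of tested genes) and 19 in ZnF4-/- cells (42.5%). The macrophage marker sum fell between those days in wild type, from 534.6 to 339.6 RPKM, and its part in the wild-type values was not tested.

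The rest of the lysosomal pathway was followed in lists outside the 46. Over all tested genes, 22.9% were called higher and 15.2% lower in ZnF1-/- cells, and 10.9% and 7.32% in ZnF4-/- cells. Among 27 other lysosomal hydrolases and cofactors tested, 24 rose (Ppt2 and Hyal1 among them could be tested only by being high there) and 1 fell in ZnF1-/- cells (median 0.80), and 4 rose and 6 fell in ZnF4-/- cells. In ZnF1-/- cells the smallest p-values were those of Acp2, an acid phosphatase (1.51 ± 0.10), Dnase2a, the acid DNase (1.56 ± 0.09), Galc, the galactocerebrosidase (1.41 ± 0.09), and Ppt1, a thioesterase that removes palmitate from proteins (1.15 ± 0.07, limma adjusted p = 0.001). Sumf1, which activates all sulphatases, rose in both mutants (0.94 ± 0.08 and 0.99 ± 0.08), the ZnF4 call being ended by leaving out the day-28 sample of wild type or of ZnF4-/-. Ctse, an endosomal aspartic protease, was the listed enzyme that fell in ZnF1-/- cells (-0.64 ± 0.11, limma adjusted p = 0.00874) and also fell in ZnF4-/- cells (-0.89 ± 0.11), the second call being ended by leaving out any 1 sample of wild type or ZnF4-/-.

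Acp5, the tartrate-resistant acid phosphatase of osteoclasts and a member of both the hydrolase and the osteoclast lists, went the other way from Ctsk in ZnF4-/- cells. Acp5 measured 29.4 and 34.9 RPKM in wild type, 31.5 and 85.9 in ZnF1-/- cells and 2.9 and 9.8 in ZnF4-/- cells, which lay below all others. It fell by 2.35 ± 0.31 in ZnF4-/- cells (limma adjusted p = 0.00839), a call ended by leaving out either ZnF4-/- sample or the day term. Of the other osteoclast and cell fusion genes, Mmp9 and Tnfrsf11a (the RANK receptor) rose in ZnF1-/- cells, by 2.76 and 1.84, as did Dcstamp, which could be tested only by being high there, and Car2, carbonic anhydrase 2, fell by 2.09 there. In all, 3 of the 6 tested of 10 listed were higher and 1 lower in ZnF1-/- cells, and 1 was lower in ZnF4-/- cells. The Mmp9 and Car2 calls were ended by leaving out either wild-type sample or the day-21 ZnF1-/- sample.

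The 19 other lysosomal membrane proteins tested included Cd68, also counted among the macrophage markers. Of the 19, 15 rose and 0 fell in ZnF1-/- cells (median 0.75), and 2 rose in ZnF4-/- cells. Slc11a1, the phagosomal metal transporter, rose by 2.48 ± 0.25 (limma adjusted p = 0.00199), and Cln3, a lysosomal protein mutated in Batten disease, rose in both mutants (0.88 ± 0.08 in each). Its ZnF4 call was ended by leaving out either wild-type sample or the day-28 ZnF4-/- sample. The mannose 6-phosphate sorting machinery moved less: 5 of 11 genes rose in ZnF1-/- cells (median 0.19). In ZnF4-/- cells 2 rose and 1 fell (18.2% and 9.09%, against 10.9% and 7.32% of tested genes). Of the 5 that rose in ZnF1-/- cells, the sorting receptor gene Sort1 could be tested only by being high there. Nagpa, the enzyme that uncovers the mannose 6-phosphate tag, rose in both mutants (0.92 ± 0.12 and 1.15 ± 0.12, limma adjusted p = 0.00418 and 0.00431), each call being ended by taking the longest transcript row or by leaving out the day-28 wild-type sample, the first also by leaving out either ZnF1-/- sample and the second by leaving out the day-28 ZnF4-/- sample. Vps26a, a retromer subunit, also rose in both (0.40 ± 0.07 and 0.36 ± 0.07), calls that were ended by leaving out any 1 sample of the groups compared. Igf2r, the large mannose 6-phosphate receptor, fell in ZnF4-/- cells by 0.86 ± 0.11, from 16.7 and 19.1 RPKM in wild type to 8.6 and 10.3 (limma adjusted p = 0.00774), a call ended by leaving out any 1 sample of wild type or ZnF4-/-.

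Genes of the nutrient-sensing complex that holds MiT/TFE factors in the cytoplasm had 5 of 17 higher and 1 lower in ZnF1-/- cells (median 0.04). These shares were 29.4% and 5.88%, against 22.9% and 15.2% of tested genes. In ZnF4-/- cells 2 were higher and 2 lower (11.8% each, against 10.9% and 7.32% of tested genes). Mtor, the kinase itself, measured 60.7 and 58.8 RPKM in wild type, 76.7 and 77.3 in ZnF1-/- cells and 30.3 and 28.7 in ZnF4-/- cells. The 3 genotypes did not overlap. Mtor fell by 0.99 ± 0.07 in ZnF4-/- cells (limma adjusted p = 0.0013), a call kept under every alternative run, and rose by 0.36 ± 0.07 in ZnF1-/- cells (adjusted p = 0.0119), a call ended by leaving out any 1 sample of wild type or ZnF1-/-. Rragd, a Rag GTPase, went the other way, with 17.3 and 14.1 RPKM in wild type, 8.1 and 7.8 in ZnF1-/- cells and 24.8 and 19.6 in ZnF4-/- cells. It fell by 0.89 ± 0.10 in ZnF1-/- cells (limma adjusted p = 0.00232), and its rise of 0.47 ± 0.10 in ZnF4-/- cells was ended by leaving out the day term or any 1 of the 6 libraries. Among 15 autophagy genes tested, 11 rose and 0 fell in ZnF1-/- cells (median 0.36), led by Map1lc3a, which encodes an LC3 protein of the autophagosome (1.16 ± 0.11, limma adjusted p = 0.00191). Vps11, a tethering subunit for lysosome fusion, rose in both mutants (0.59 ± 0.07 and 0.94 ± 0.07), each call being ended by leaving out the day-28 wild-type sample.

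**Figure D5:**
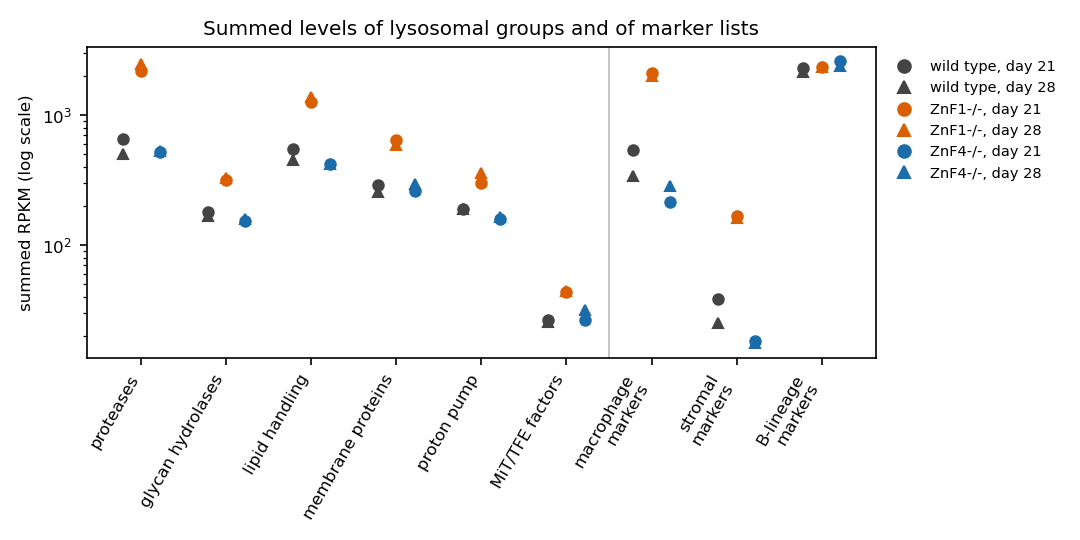
Summed RPKM on a log scale (vertical axis) of the 6 groups of lysosomal genes and of the macrophage, stromal and B-lineage marker lists, in each of the 6 libraries (circles day 21, triangles day 28). The protease and macrophage marker sums are highest in ZnF1-/- cells (2163.7 and 2477.2, and 2122.8 and 2005.5 RPKM), whereas the B-lineage sum lies between 2127.8 and 2598.8 in every library.

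Of the 40 calls in ZnF1-/- cells, 26 were kept without each single library, and 23 under every alternative run. The 13 calls ended by leaving out the day-28 wild-type sample were Ctsc, Glb1, Gusb, Npc2, Lamp1, Lamp2, Scarb2, Fuca1, Atp6v0d1, Atp6v1a, Atp6ap1, Tfeb and Tfe3, and Asah1 was ended by leaving out the day-21 wild-type sample or either ZnF1-/- sample. Ctsf, Mitf and Tfec were among the calls kept under every alternative that tested them, and requiring a mean of at least 4 RPKM left them out. Each could be tested only by being high in ZnF1-/- cells. Testing all 22098 symbols with no filter on low values ended 10 of the 40 (Ctsc, Psap, Glb1, Naglu, Asah1, Lamp1, Atp6v0d2, Atp6v1a, Tfeb and Tfe3) and all 11 calls in ZnF4-/- cells. Of the 41 calls between the mutants, 31 were kept without each single library. Quantile scaling moved the median of all tested genes in ZnF1-/- cells to -0.12 and the calls to 18% higher and 25.6% lower, with 40 members still called higher and a members' median of 1.04.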

How the data were processed

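Poly(A) RNA-seq covered 6 libraries, 1 per genotype (wild type, ZnF1-/-, ZnF4-/-) and day (21 and 28). The authors deposited 1 table of RPKM per transcript row, rounded to 0.1; TopHat, bedtools and build mm9 are named in the submitters' processing notes, without versions. The table held 26531 rows with a gene symbol and 1 without, which was left out. Low values did not fall on whole-read steps, so depth is unknown and no counting interval is given; precision rests on the spread between libraries.

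Each of the 22098 symbols was represented by its row with the highest mean. Values were tested as log2(RPKM + 1) with limma 3.58.1 in R 4.3.3 (genotype and day as terms, all 6 libraries in 1 fit, trended prior variance, 2-sided, Benjamini-Hochberg adjustment over the 11379 genes at 1 RPKM or more in at least 2 libraries). A gene was called at an adjusted p below 0.05, and differences of low genes are understated by the pseudocount of 1. Differences are ± the standard error of the fit, which has 2 residual degrees of freedom. The fit was tested on simulated data. Day is given by the labels and pairs the libraries: the day changes of the genotypes correlated across genes with Pearson r of 0.433, 0.249 and 0.226, and genes are not independent replicates.

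The members and the 12 lists were chosen with earlier results of these data known. Of the B-lineage markers, 1 is not reported here and was left out of its list. Values in every library were given for the MiT/TFE factors, the d subunits, Ctsk, and in each role up to 4 called members with the largest differences and the highest expressed, and for a few others chosen after their values were seen; from each list, up to 4 genes with the smallest p were eligible. Alternatives were no replicate block (no day term), another pseudocount (0.1), no filter, a mean of at least 4 RPKM, quantile and upper-quartile scaling, the longest transcript row, no trend, each library left out and, chosen after seeing the data, the sum of rows per symbol.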

Additional observations from a re-analysis of the deposited data

Results flagged for a closer look

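Between day 21 and day 28 the summed RPKM of several lysosomal groups moved in opposite directions in wild type and in a mutant. With 1 library per genotype and day these differences were not tested. On the log2 scale, day 28 over day 21, the protease sum changed by -0.38 in wild type, 0.20 in ZnF1-/- cells and 0.02 in ZnF4-/- cells. For lipid handling the changes were -0.29, 0.13 and 0.01 in the same order, and for the glycan hydrolases -0.11, 0.05 and 0.06. The membrane protein sum changed by -0.16 in wild type and 0.17 in ZnF4-/- cells, and the sum of the MiT/TFE factors by -0.07 in wild type, 0.02 in ZnF1-/- cells and 0.26 in ZnF4-/- cells. The macrophage marker sum changed by -0.65, -0.08 and 0.39 over the same days.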

How the results depend on the processing

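None of the called members changed direction under any alternative. Without the replicate block, that is, without pairing the libraries by day, ZnF1-/- cells had 39 members called higher in place of 40, ZnF4-/- cells 3 higher and 6 lower in place of 4 and 7, and ZnF4-/- cells against ZnF1-/- cells 39 lower in place of 41. The calls of ZnF1-/- cells numbered 30 without a filter on low values, 43 with upper-quartile scaling and 27 to 40 with 1 library left out. Quantile scaling gave 1 member called lower in ZnF1-/- cells (Arsb), and 2 higher and 9 lower in ZnF4-/- cells. Without the filter ZnF4-/- cells had 0 higher and 0 lower, and with 1 library left out 0 to 1 higher and 0 to 5 lower. The members' median in ZnF4-/- cells lay between -0.26 and -0.04 with 1 library left out, the lowest without the day-28 wild-type sample. Between the mutants, 33 were lower without the filter, and leaving out 1 library gave 32 to 38 lower and 0 to 1 higher (Ctsk, without the day-28 ZnF1-/- sample). Over all tested genes in ZnF1-/- cells, 26.1% were higher and 9.05% lower with upper-quartile scaling, and 9.44% and 2.82% without the filter. With a mean of at least 4 RPKM required, 16.3% were higher and 18% lower. The cause of these shifts was not tested. Limits are n = 2 per genotype, an unknown depth, and values rounded to 0.1, which leaves little resolution for Mitf, Tfec, Ctsf and Ctsh outside ZnF1-/- cells.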
